A study of Mus musculus with 16 samples.

Results

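Notch cleavage enzymes and the Notch regulators Numb and Itch were followed as 8 genes, Adam10, Adam17, Psen2, Ncstn, Aph1a, Psenen, Numb and Itch, chosen by their known roles out of 38355 genes in the expression table. All 8 were found by symbol, and all 8 were among the 12507 genes tested, those with a mean above 1 RPKM (reads per kilobase of exon, scaled to a fixed number of mapped reads per library) in at least 1 group. RNA-Seq was performed on B-cells of C57BL/6 mice sorted from spleens pooled from 3 to 5 animals, and compared Mir146a-/- (KO) with wild-type (WT) mice in transitional 1 (T1), transitional 2 (T2), marginal zone (MZ) and follicular (FO) cells, with 2 replicates per group and 16 libraries in all. KO mice are deficient in the microRNA miR-146a, and the labels give no engineered allele for WT mice. Sorting gates used CD23, AA4, IgM and CD21, and the age of the mice used for RNA-Seq was not given in the sources used here. As nothing states whether the subsets of 1 replicate came from the same pool of spleens, p-values measured the spread between these pools of cells only.

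Notch receptors are activated by cutting. After a ligand binds, the membrane proteases ADAM10 or ADAM17 shed the outer part of the receptor, and gamma-secretase, a complex of a presenilin, nicastrin, an Aph1 protein and Pen-2, then cuts within the membrane and frees the intracellular domain, which enters the nucleus. Numb, an endocytic adaptor, and Itch, a ubiquitin ligase of the Nedd4 family, restrain the receptor. In the spleen, signaling through Notch2 is required for transitional cells to become MZ B-cells, and the question of the comparison was whether loss of miR-146a altered gene expression along this path.

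Numb and Itch were the members whose 3′ untranslated regions held a match to the seed of miR-146a, so these sequences are shown together. The mature mmu-miR-146a-5p (RefSeq, GRCm38.p6, chr11:43374435-43374456, minus strand) is printed with its seed, bases 2 to 8, in capitals, and the sites of Numb (chr12:83794809-83794834, minus strand, transcript Numb-204) and Itch (chr2:155225815-155225840, plus strand, transcript Itch-201) are from GENCODE M21 on GRCm38 with the match in capitals.
mmu-miR-146a-5p: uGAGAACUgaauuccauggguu
Numb: agaatattttaaatAGTTCTCAatat
Itch: ctagctgctcatcctGTTCTCAtcct
The Numb site, at base 619 of a region of 1405 bases, was the 8-letter match AGTTCTCA, found in the longest 3′ untranslated region of 464 of 10294 tested genes (4.51%). The Itch site, at base 1364 of 2389, was the 7-letter match GTTCTCA without the preceding A, found in 10.7% of those genes when overlapping 8-letter matches were counted apart. The other 6 members held none of AGTTCTCA, AGTTCTC or GTTCTCA on the transcript strand. Any of the 3 was thus held by 2 of 8 members, near the 20.4% of the tested genes. A match describes letters only, and these sites were not measured here.

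The 8 mRNAs were present in every library of every subset at levels that differed little. Psenen had the highest level over all 16 libraries (mean 49.8 RPKM), followed by Adam10 (41.3), Ncstn (32.2), Adam17 (24.1), Psen2 (22.3), Itch (19.5), Aph1a (9.25) and Numb (7.34). Ncstn, Aph1a and Numb kept the third, seventh and eighth place in all 16 libraries. Psenen and Adam10 exchanged the top place in 3 libraries, KO T1 replicate 1, KO MZ replicate 1 and WT MZ replicate 1, and Adam17, Psen2 and Itch shared the fourth to the sixth place. Reads behind a value ran from 222 (Aph1a) to 4676 (Itch) per library.

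**Figure D1:**
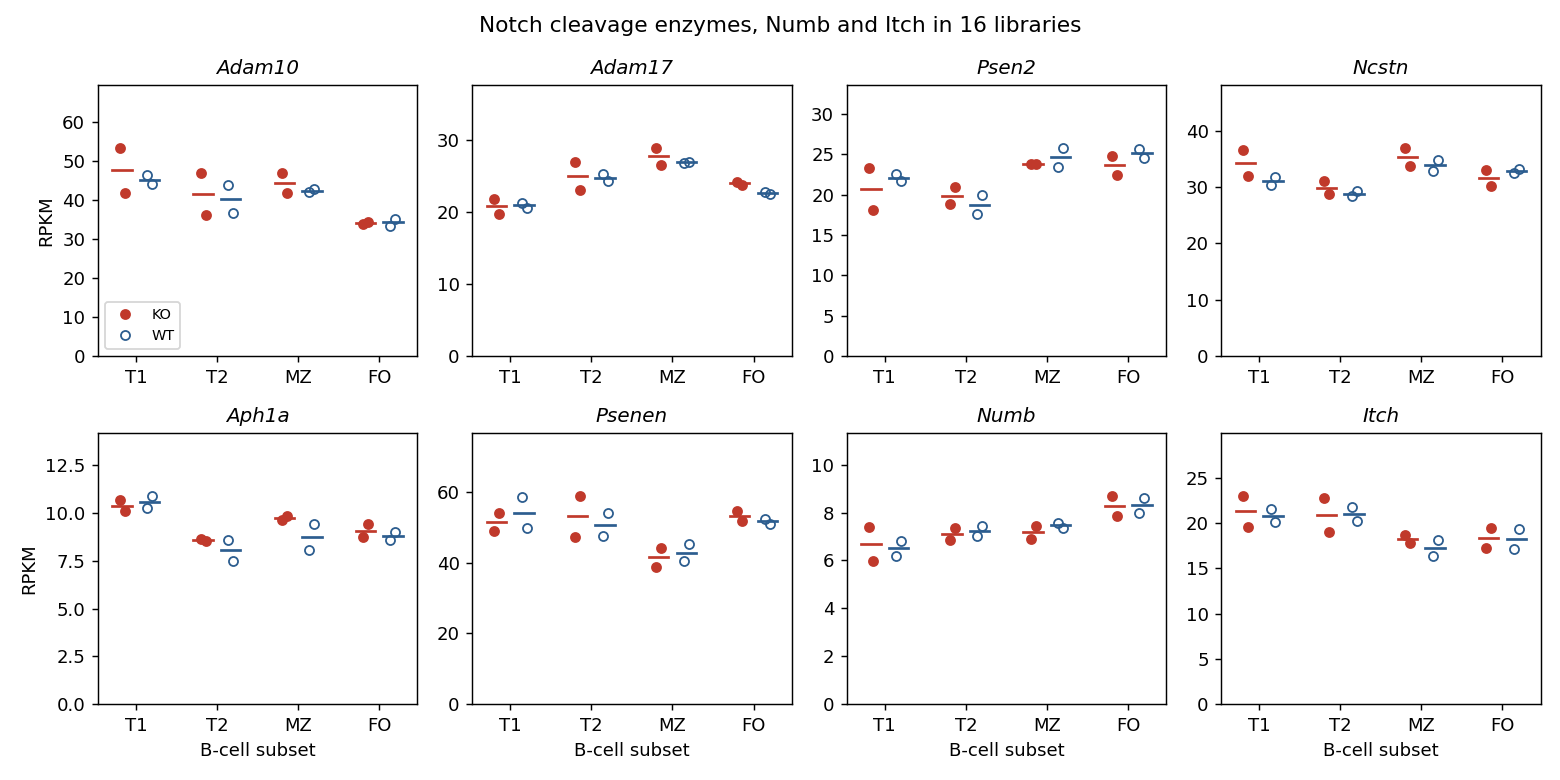
RPKM of each of the 8 genes by B-cell subset, with filled red points for KO libraries, open blue points for WT libraries and bars at the mean of 2 replicates; each vertical axis starts at 0. No gene spans more than 1.6-fold between its lowest and highest library, and KO and WT points lie at like heights.

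Between the lowest and the highest library, the level differed by 1.31-fold for Ncstn and by up to 1.60-fold for Adam10. The spread between the highest and the lowest mean of the 4 subsets was 1.25-fold at the median of the 8 genes, against 1.48-fold at the median of all tested genes and 1.38-fold for the 7998 tested genes with a mean above 5 RPKM. The spread of replicates within a group was 0.11 on the log2 scale at the median of the 8 genes, against 0.17 over all tested genes and 0.14 over those with a mean above 5 RPKM. These medians are descriptions and carry no test.

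The shallowest library, of WT T2 cells, held 9003343 reads and the deepest, of WT FO cells, 26386684. The B-cell marker genes Ms4a1, Cd79a and Cd79b together reached 2961 to 5743 RPKM in every library. The sum of 10 myeloid markers was 11.1 to 81.9 RPKM in T1, 56.0 to 101.7 in T2, 18.4 to 47.9 in MZ and 7.54 to 27.5 in FO libraries, and that of 3 plasma cell markers was 434.1 to 3905 RPKM in T1 and at most 40.7 in the other subsets. Sums of 6 T cell markers (at most 15.9 RPKM) and 5 erythroid markers (at most 7.19 RPKM) were low in every subset. Mir146, the gene removed in KO mice, had 0 reads in all 8 KO libraries and 1 read in each WT FO library, so at this depth mRNA sequencing could not check the genotype.

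Of the 8 members, 1 rose and 1 fell in T2 against T1, 2 rose and 2 fell in MZ against T2, 1 rose in FO against T2, and 2 were higher and 1 lower in MZ against FO, in a limma test with KO and WT averaged and an adjusted p under 0.05. In T2 against T1, 26.0% of all tested genes passed in either direction. In MZ against T2, 22.8% rose and 19.6% fell. In FO against T2, 4.77% rose and 5.04% fell, and in MZ against FO, 19.9% were higher and 17.4% lower. With 8 genes, 1 gene more or fewer would bring each count to or past the share of all genes, so the counts set the members apart in none of the 4. In bulk cells, fewer cells of a type and less RNA per cell cannot be told apart. Myeloid marker sums were lower in all MZ and FO libraries than in all T2 libraries. Of 8 tested myeloid markers, 1 rose and 2 fell in MZ against T2, and 0 rose and 6 fell in FO against T2. The part of myeloid RNA in the differences from T2 was not tested. No member differed by more than 1 on the log2 scale in any of the 4 comparisons, a size that 10.9% of tested genes passed in MZ against T2. Under median-ratio scaling the share of higher genes among those passing in T2 against T1 was 45.8%, against 61.7% without it.

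**Figure D2:**
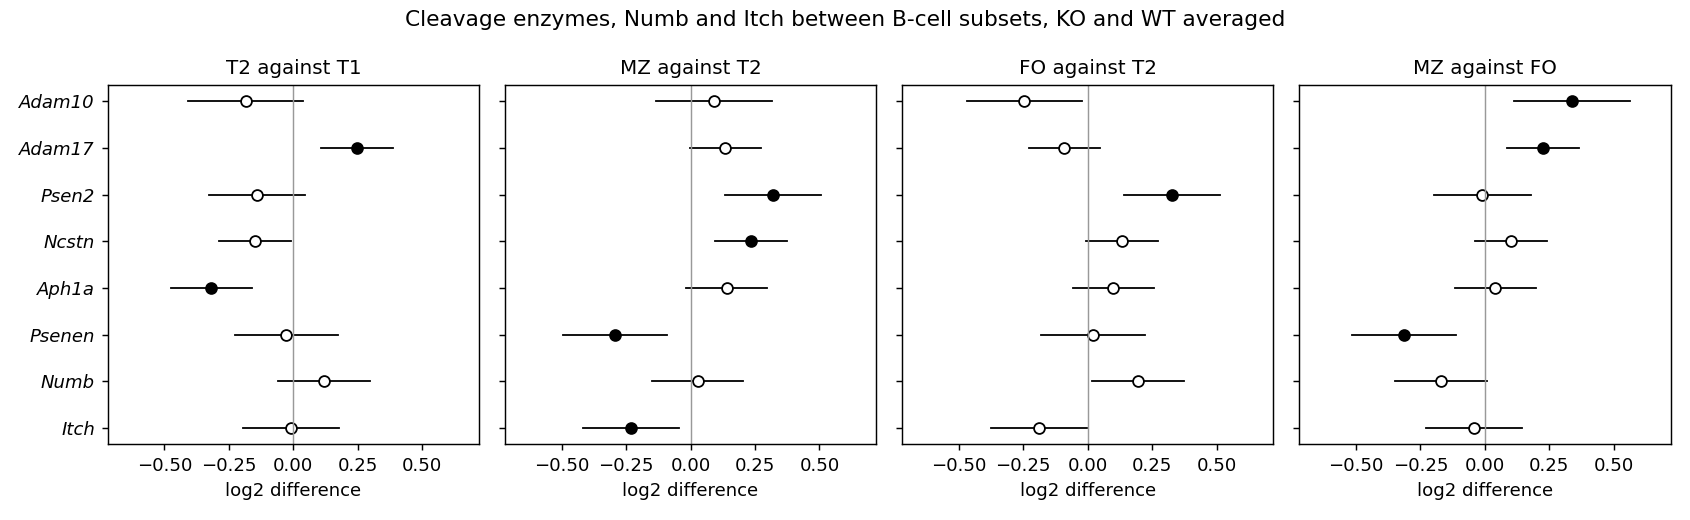
Log2 difference of each gene with its 95% interval in 4 comparisons of B-cell subsets, KO and WT averaged (4 libraries per subset); filled points passed an adjusted p of 0.05. The filled points are Adam17 and Aph1a in T2 against T1, Psen2, Ncstn, Psenen and Itch in MZ against T2, Psen2 in FO against T2, and Adam10, Adam17 and Psenen in MZ against FO.

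Adam10 encodes the principal sheddase of ligand-bound Notch receptors and lies on chromosome 9 from 70678997 to 70780229 (ENSMUSG00000054693, GRCm38, plus strand). Its level was 53.6 and 42.0 RPKM in KO T1 and 46.4 and 44.2 in WT T1 libraries. It was 47.1 and 36.2 RPKM in KO T2 and 43.8 and 36.7 in WT T2 libraries. T2 libraries of replicate 2 were below all T1 libraries, while those of replicate 1 lay among them. The level was 46.9 and 41.9 RPKM in KO MZ and 42.1 and 42.8 in WT MZ libraries, and 34.0 and 34.4 RPKM in KO FO and 33.5 and 35.1 in WT FO libraries. All 4 MZ libraries, and all 4 T2 libraries, were above all 4 FO libraries. Adam10 was higher in MZ than in FO cells by 0.34 ± 0.10 (SE) on the log2 scale (adjusted p = 0.0228). In FO against T2 the difference was -0.25 ± 0.10 (adjusted p = 0.130), and in MZ against T2 it was 0.09 ± 0.10 (adjusted p = 0.50). The MZ against FO call was lost (adjusted p 0.0552 to 0.0827, difference at least 0.30) when KO FO replicate 1 or 2, KO MZ replicate 1, WT FO replicate 1, or WT MZ replicate 1 or 2 was left out, and the FO against T2 difference passed (adjusted p = 0.0497) without KO T2 replicate 2.

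Adam17 encodes the second sheddase, also known as the converting enzyme of tumor necrosis factor (ENSMUSG00000052593, chromosome 12 from 21323509 to 21373632, minus strand). Its level was 21.8 and 19.8 RPKM in KO T1 and 21.3 and 20.6 in WT T1 libraries. It was 26.9 and 23.0 RPKM in KO T2 and 25.3 and 24.3 in WT T2 libraries. Every T2 library was above every T1 library. It was 29.0 and 26.6 RPKM in KO MZ and 26.8 and 27.0 in WT MZ libraries, and 24.2 and 23.7 RPKM in KO FO and 22.7 and 22.5 in WT FO libraries. MZ cells held the highest levels, and all 4 MZ libraries were above all 4 FO libraries. Adam17 rose by 0.25 ± 0.06 on the log2 scale in T2 against T1 (adjusted p = 0.0153) and was 0.23 ± 0.06 higher in MZ than in FO cells (adjusted p = 0.0159). The difference in MZ against T2 was 0.14 ± 0.06 (adjusted p = 0.107), and it passed under quantile normalization (adjusted p = 0.0170) and without KO T2 replicate 1 (adjusted p = 0.0346). The T2 against T1 call was lost under median-ratio scaling and with the T1 and T2 libraries alone (adjusted p 0.0888 and 0.101), and the MZ against FO call without KO FO replicate 2 or KO MZ replicate 1 (adjusted p 0.0510 and 0.0632). Exons of Iah1 on the other strand overlap 4.35% of its exon bases.

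The ratio of Adam10 to Adam17 was 2.13 to 2.45 in T1 libraries, 1.51 to 1.75 in T2 libraries, 1.57 to 1.62 in MZ libraries and 1.40 to 1.56 in FO libraries. T1 libraries stood above all others in this ratio, in KO and in WT mice. Plasma cell marker sums were also highest in T1 libraries. Their part in the ratio, and in the T2 against T1 rise of Adam17, was not tested.

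Psen2 encodes presenilin 2, a catalytic subunit of gamma-secretase (ENSMUSG00000010609, chromosome 1 from 180227004 to 180263438, minus strand). Its level was 23.3 and 18.1 RPKM in KO T1 and 22.6 and 21.6 in WT T1 libraries. It was 18.9 and 20.9 RPKM in KO T2 and 17.5 and 20 in WT T2 libraries. It was 23.8 and 23.7 RPKM in KO MZ and 23.4 and 25.8 in WT MZ libraries. All 4 MZ libraries were above all 4 T2 libraries. The same held for FO libraries, with 24.8 and 22.5 RPKM in KO FO and 25.7 and 24.5 in WT FO libraries. Psen2 rose by 0.32 ± 0.08 on the log2 scale in MZ against T2 (adjusted p = 0.0110) and by 0.33 ± 0.08 in FO against T2 (adjusted p = 0.0401), and MZ and FO differed by -0.01 (95% interval -0.20 to 0.18). Both comparisons share the T2 libraries. The rise in MZ passed in each fit that left out 1 library (adjusted p at most 0.0453), whereas that in FO was lost in 10 of 16 such fits (adjusted p up to 0.167), and passed only without KO T1 replicate 1 or 2, KO T2 replicate 2, WT T1 replicate 1 or 2, or WT T2 replicate 2. In FO against T2 the number of all genes passing was 22 without KO FO replicate 1 and 2068 without WT T2 replicate 2, and 6 of 8 tested myeloid markers fell in the same comparison. The part of myeloid RNA in the Psen2 difference was not tested.

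Ncstn encodes nicastrin, the large subunit that receives the shed receptor stub (ENSMUSG00000003458, chromosome 1 from 172066013 to 172082795, minus strand). Its level was 37.0 and 33.8 RPKM in KO MZ and 32.9 and 34.9 in WT MZ libraries, against 31.1 and 28.8 in KO T2 and 28.4 and 29.3 in WT T2 libraries. All 4 MZ libraries lay above all 4 T2 libraries. Ncstn rose by 0.23 ± 0.06 on the log2 scale (adjusted p = 0.0122), and this passed in each of 16 fits that left out 1 library (adjusted p at most 0.0479). T1 libraries (30.4 to 36.7 RPKM) and FO libraries (30.3 to 33.3 RPKM) overlapped with both. The T2 against T1 difference was -0.15 ± 0.06 (adjusted p = 0.108), and passed without KO T1 replicate 2 and under median-ratio scaling (adjusted p at most 0.0450). Exons of Copa on the other strand overlap 4.91% of its exon bases.

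Aph1a encodes an Aph1 scaffold subunit (ENSMUSG00000015750, chromosome 3 from 95893969 to 95898288, plus strand). Its level was 8.64 and 8.55 RPKM in KO T2 and 8.61 and 7.51 in WT T2 libraries, against 10.7 and 10.1 in KO T1 and 10.2 and 10.9 in WT T1 libraries. The groups did not overlap, and Aph1a fell by 0.32 ± 0.07 on the log2 scale in T2 against T1 (adjusted p = 0.00787). The call was lost with the T1 and T2 libraries alone (adjusted p = 0.0586). Plasma cell marker sums were highest in T1 libraries, and their part in this fall was not tested. MZ libraries (8.05 to 9.85 RPKM) and FO libraries (8.62 to 9.41 RPKM) overlapped with T2 and were all below T1, and their differences from T2 of 0.14 ± 0.07 and 0.10 ± 0.07 did not pass (adjusted p = 0.135 and 0.360). Of its annotated exon bases, 12.9% overlap exons of Car14 on the other strand, and reads there could not be told apart if strand was not used in counting.

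Psenen encodes Pen-2, the smallest subunit, which completes the complex (ENSMUSG00000036835, chromosome 7 from 30561863 to 30563627, minus strand). Its level was 38.9 and 44.1 RPKM in KO MZ and 40.3 and 45.3 in WT MZ libraries, against 47.2 and 59.0 in KO T2 and 47.5 and 53.9 in WT T2 libraries. T1 libraries (49.0 to 58.4 RPKM) and FO libraries (51.1 to 54.7 RPKM) overlapped with T2. All 4 MZ libraries were below each of the 12 others. Psenen fell by 0.29 ± 0.09 on the log2 scale in MZ against T2 (adjusted p = 0.0235), and in MZ against FO the difference was -0.31 ± 0.09 (adjusted p = 0.0193). The MZ against T2 call was lost without KO MZ replicate 1, KO T2 replicate 2, WT MZ replicate 1 or WT T2 replicate 2 (adjusted p up to 0.0870), with the MZ and T2 libraries alone (adjusted p = 0.0583) and under quantile normalization (adjusted p = 0.0992), and the MZ against FO call without KO FO replicate 1, KO MZ replicate 1, WT FO replicate 1 or WT MZ replicate 1 (adjusted p 0.0594 to 0.0754). Exons of U2af1l4 and Gm49396 on the other strand overlap 9.33% and 8.71% of its exon bases.

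Ncstn and Psenen, subunits of 1 complex, differed in opposite directions in MZ against T2. The ratio of Psenen to Ncstn was 1.05 to 1.31 in MZ libraries, against 1.52 to 2.05 in T2 libraries, 1.34 to 1.92 in T1 libraries and 1.54 to 1.71 in FO libraries. MZ libraries were below all the others. Against T2 this had to be so, since all MZ libraries were above T2 in Ncstn and below T2 in Psenen. No other pair of subunits was compared in this way.

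Numb carries the 8-letter match to the miR-146a seed printed above (ENSMUSG00000021224, chromosome 12 from 83794034 to 83921934, minus strand). Its level was 7.40 and 5.96 RPKM in KO T1 and 6.19 and 6.81 in WT T1 libraries. It was 6.86 and 7.37 RPKM in KO T2 and 7.03 and 7.43 in WT T2 libraries. KO and WT libraries overlapped in T1 and in T2. It was 6.90 and 7.45 RPKM in KO MZ and 7.57 and 7.36 in WT MZ libraries, and 8.71 and 7.87 RPKM in KO FO and 7.98 and 8.62 in WT FO libraries. KO and WT libraries overlapped here too, and all 4 FO libraries were above all MZ, T2 and T1 libraries. FO against T2 gave 0.20 ± 0.08 (adjusted p = 0.128), MZ against FO gave -0.17 ± 0.08 (adjusted p = 0.127) and MZ against T2 gave 0.03 ± 0.08 (adjusted p = 0.811), so no subset comparison passed for Numb. The MZ against FO difference passed under quantile normalization (adjusted p = 0.0166). Exons of Gm46367 on the other strand overlap 4.24% of its exon bases.

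Itch carries the 7-letter match (ENSMUSG00000027598, chromosome 2 from 155133509 to 155226855, plus strand). Its level was 18.7 and 17.8 RPKM in KO MZ and 16.3 and 18.1 in WT MZ libraries, against 22.7 and 19.0 in KO T2 and 21.7 and 20.2 in WT T2 libraries. All 4 MZ libraries were below all 4 T2 libraries, FO libraries (17.1 to 19.4 RPKM) overlapped with MZ, and T1 libraries (19.5 to 23.0 RPKM) with T2. The difference in MZ against T2 was -0.23 ± 0.08 (adjusted p = 0.0465), close to the threshold. It was lost in 13 of 16 fits that left out 1 library (adjusted p up to 0.161) and passed only without KO T1 replicate 1, KO T1 replicate 2 or KO T2 replicate 2. Without KO T2 replicate 1 the difference was -0.17.

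None of the 8 genes passed the test between KO and WT cells. In KO against WT with the subsets averaged, 0 of 8 passed, against 0.232% of all tested genes. Within subsets, 0 of 8 passed in T1 (0.0400% of all tested genes), 0 in T2 (0.0480%), 0 in MZ (0.0640%) and 0 in FO (0.0400%). At an unadjusted p under 0.05 the count was also 0 in each, against 7.98% of all tested genes with subsets averaged and, within subsets, 3.51% (T1), 3.37% (T2), 1.65% (MZ) and 0.919% (FO). With 8 genes, counts of 0 are near these shares. The count was 0 as well with voom in limma on recovered reads and in the fits that left out 1 library. Averaged differences ran from -0.04 ± 0.06 for Psen2 to 0.07 ± 0.05 for Aph1a on the log2 scale, with adjusted p of at least 0.769.

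For Numb, which holds the 8-letter match, the KO against WT difference was 0.03 (95% interval -0.22 to 0.28) in T1, -0.02 (-0.27 to 0.23) in T2, -0.05 (-0.31 to 0.20) in MZ and 0.00 (-0.25 to 0.25) in FO cells. Averaged over subsets it was -0.01 (-0.14 to 0.11). For Itch the averaged difference was 0.03 (-0.10 to 0.16). The sign for Numb changed when single libraries were left out, with averaged values from -0.05 to 0.02. These intervals do not show that the genotypes were equal, and changes within them were not detectable with 2 replicates. Over the 464 tested genes with the 8-letter match the median averaged difference was 0.019, and over the 8191 genes with no match it was 0.015.

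**Figure D3:**
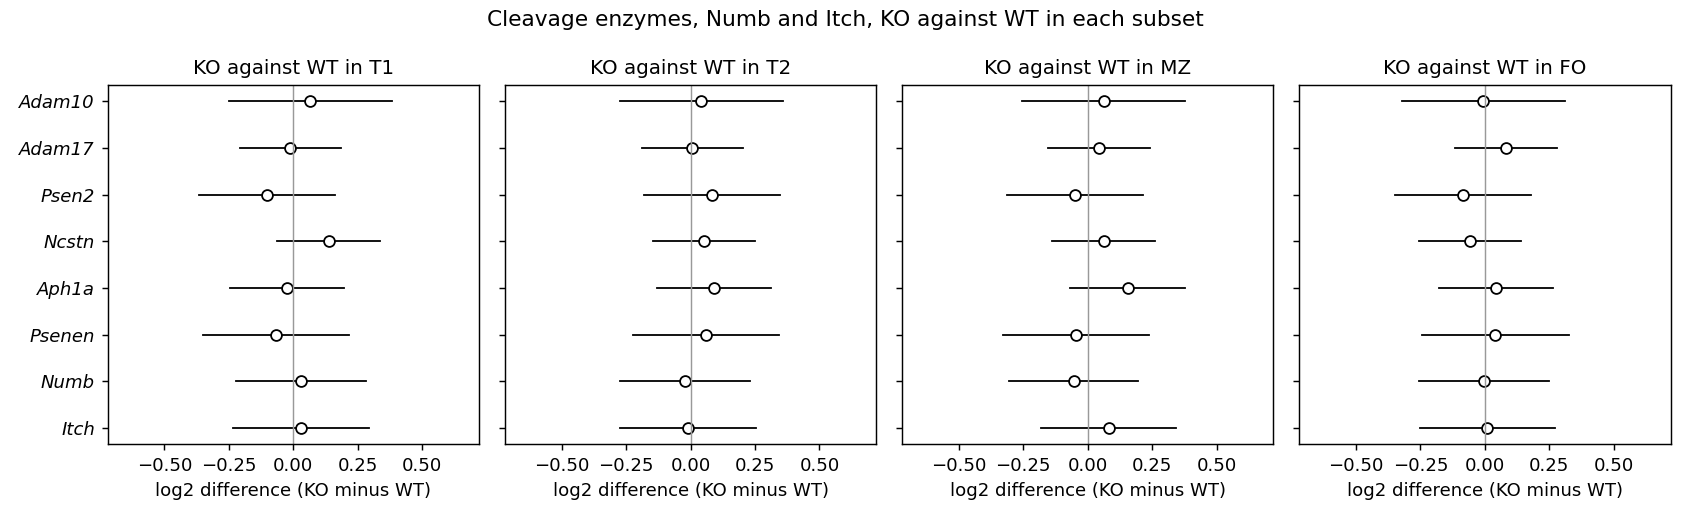
Log2 difference of each gene in KO against WT with its 95% interval in T1, T2, MZ and FO cells (2 libraries per genotype and subset); open points did not pass an adjusted p of 0.05. All points are open, and every interval includes 0.

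MZ against T2 was also tested within each genotype. In KO cells 0 of 8 passed (25.3% of all tested genes passed in either direction), with 2 of 8 at an unadjusted p under 0.05 (36.5% of all tested genes) and 0 with voom. In WT cells 1 of 8 passed (29.3% of all tested genes), Psen2, with a difference of 0.38 ± 0.12 (adjusted p = 0.0341), against 0.25 ± 0.12 in KO cells (adjusted p = 0.153). Psen2 lost the WT call without WT MZ replicate 1 or 2 or WT T2 replicate 1. Psenen differed by -0.34 ± 0.13 in KO and by -0.24 ± 0.13 in WT cells (adjusted p = 0.0742 and 0.186), and passed in KO cells (difference -0.50) without KO T2 replicate 1. The differences between the genotypes were tested directly, and 0 of 8 passed for MZ against T2 (0.00800% of all tested genes) and 0 of 8 for FO against T2 (0.00800%). At an unadjusted p under 0.05 the counts were 0 of 8 (1.66% of all tested genes for MZ against T2 and 0.983% for FO against T2), and with voom they were 0.

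Several partners or relatives of the 8 members differed far more in MZ against T2 than any member. Those named have the widest differences of each list, at most 2 risers and 2 fallers beyond 1 on the log2 scale. Of all tested genes, 10.9% were called beyond 1 in this comparison, 22.8% rose and 19.6% fell. For Tspan15, Adam28, Adam15 and Aph1b the difference is a description only, since no subset other than MZ had a group mean above 1 RPKM. A gene that enters the test only where it is high has to differ.

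Tspan15, a tetraspanin that binds ADAM10 and guides it through the secretory pathway, had a level of 25.8 and 27.6 RPKM in KO MZ and 29.2 and 21.9 in WT MZ libraries, against 0.115 and 0.257 in KO T2 and 0.154 and 0.0204 in WT T2 libraries. The T2 values rest on 1 to 13 reads. It was also at 0.711 RPKM or less in all T1 and FO libraries, and the fitted difference in MZ against T2 was 5.39 ± 0.19. Of the 6 listed tetraspanin partners of ADAM10, 4 were tested, and of the 3 besides Tspan15, 1 rose and 1 fell.

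Rhbdf1 encodes iRhom1, a partner of ADAM17 in its maturation. The level of Rhbdf1 was 18.9 and 21.1 RPKM in KO MZ and 25.5 and 27.8 in WT MZ libraries. In T2 libraries it was 0.659 and 2.04 RPKM in KO and 1.04 and 2.15 in WT cells. FO libraries were between, at 4.37 and 3.33 RPKM in KO FO and 4.24 and 5.58 in WT FO libraries. It rose by 3.66 ± 0.30 in MZ against T2 (adjusted p = 5.29e-06), and in KO against WT MZ cells the difference of -0.41 ± 0.43 did not pass (adjusted p = 1). Rhbdf1 was the only riser among 3 tested ADAM17 partners in MZ against T2, and none of the 3 fell.

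Adam28, a further ADAM protease, had a level of 20.5 and 9.95 RPKM in KO MZ and 15.1 and 13.3 in WT MZ libraries (644 to 1018 reads), against 0 to 2 reads in each T2 library and 0 in each T1 library. The fitted difference in MZ against T2 was 4.83 ± 0.20. As the T2 levels are near 0, the size depends on the setting and ran from 3.90 to 9.36 over the alternatives tried, against 4.57 to 7.87 for Tspan15. Adam15 had a level of 1.58 and 2.18 RPKM in KO MZ and 1.86 and 1.74 in WT MZ libraries, against 0.369 and 0.754 in KO T2 and 0.406 and 0.749 in WT T2 libraries, with a fitted difference of 1.15 ± 0.19. Of the 2 other tested ADAM proteases outside the Notch sheddases, 1 fell. The 3 genes with the widest differences, Tspan15, Adam28 and Rhbdf1, were high in MZ libraries of both genotypes.

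**Figure D4:**
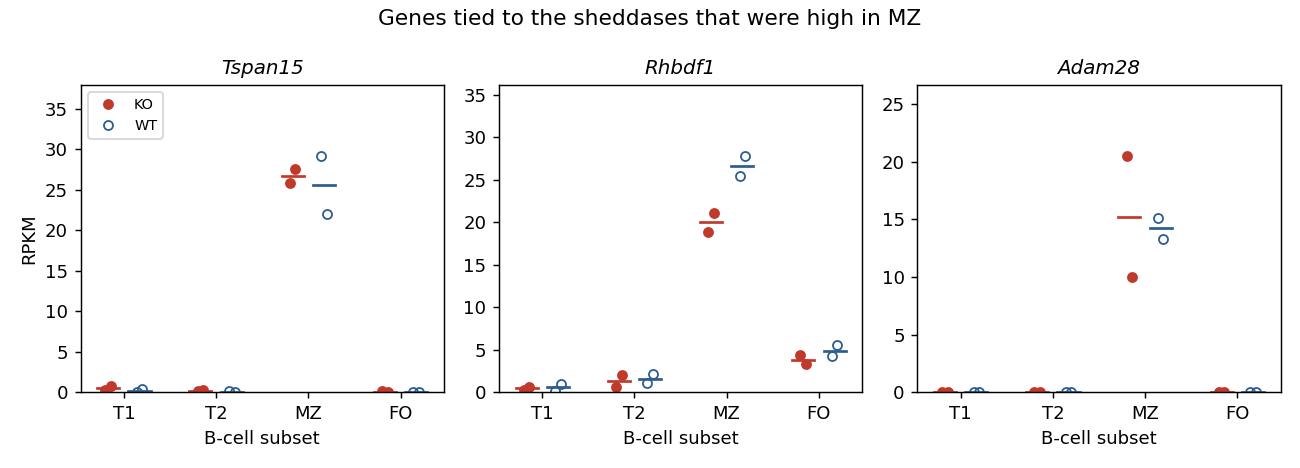
RPKM of Tspan15, Rhbdf1 and Adam28 by B-cell subset, with filled red points for KO libraries, open blue points for WT libraries and bars at the mean of 2 replicates. In MZ cells every library lies above every library of the other subsets, for example at 18.9 to 27.8 RPKM for Rhbdf1, and KO and WT are both high.

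Aph1b, the alternative Aph1 subunit, had a level of 2.04 and 1.82 RPKM in KO MZ and 1.79 and 2.19 in WT MZ libraries, against 0.355 and 0.909 in KO T2 and 0.323 and 0.754 in WT T2 libraries, with a fitted difference of 1.22 ± 0.22. Reads that match both Aph1b and its close paralog Aph1c would be missing from these values, as multi-mapping reads were left out. Besides Aph1b, the 1 other tested gamma-secretase gene outside the members rose in MZ against T2. Of 3 tested relatives and partners of Numb, 2 rose and none by more than 1 on the log2 scale. Of 8 tested relatives and adaptors of Itch, 2 rose, among them the related ligase Nedd4 (difference 1.27 ± 0.20, adjusted p = 5.31e-04). Nedd4 was at 81.6 and 81.5 RPKM in KO MZ and 86.8 and 84.0 in WT MZ libraries. T2 libraries held 41.4 and 24.5 RPKM in KO and 45.6 and 29.97 in WT cells. The level of Nedd4 was also high in T1 libraries, at 57.25 to 79.5 RPKM, and was 6.78 to 10.9 in FO libraries.

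Further along the pathway, 1 of 3 tested receptors and ligands rose in MZ against T2, none beyond 1 on the log2 scale, and of 5 glycosylation genes 2 rose and 1 fell, the fringe enzyme Lfng (difference -1.10 ± 0.19, adjusted p = 0.0010). Of 6 nuclear factors 3 rose and 1 fell, with the Mastermind cofactors Maml2 at 1.01 ± 0.06 (adjusted p = 5.86e-07) and Maml3 at -1.66 ± 0.15 (adjusted p = 9.68e-06). Of 5 tested Notch target genes 4 rose, with Dtx1 at 3.46 ± 0.21 (adjusted p = 6.13e-07) and Hes5 at 2.59 ± 0.22 (adjusted p = 6.87e-06). Hes5 was low in T2 cells, at a mean of 0.799 RPKM. In KO against WT, 0 of the 43 tested genes of these lists passed in limma, with subsets averaged or within any subset. At an unadjusted p under 0.05 the count was 1 with subsets averaged and 0 within each subset, and with voom it was 0 in each.

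The lists were also counted in the other subset comparisons, without genes that passed the filter only through 1 of the 2 subsets compared. In T2 against T1, 1 of 4 tetraspanin partners and 1 of 4 other ADAM proteases fell, 1 of 3 ADAM17 partners rose and 1 fell, 1 of 3 receptors and ligands rose and 1 fell, 3 of 5 glycosylation genes rose and 1 fell, 1 of 6 nuclear factors rose, and of 8 relatives and adaptors of Itch 1 rose and 2 fell. In FO against T2, 1 of 4 tetraspanin partners, 2 of 3 ADAM17 partners and 2 of 5 glycosylation genes rose, 1 of 5 target genes rose and 1 fell, and 1 of 8 relatives and adaptors of Itch fell. The T2 against T1 and FO against T2 counts share the T2 libraries. The 1 gamma-secretase gene counted outside the members was higher in MZ than in FO cells. In MZ against FO, 1 of 3 ADAM17 partners was higher and 1 lower, 1 of 2 receptors and ligands was higher, 1 of 5 glycosylation genes was higher and 2 lower, 3 of 6 nuclear factors were higher and 2 lower, 4 of 5 target genes and 1 of 3 relatives and partners of Numb were higher, and of 8 relatives and adaptors of Itch 3 were higher and 2 lower.

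**Figure D5:**
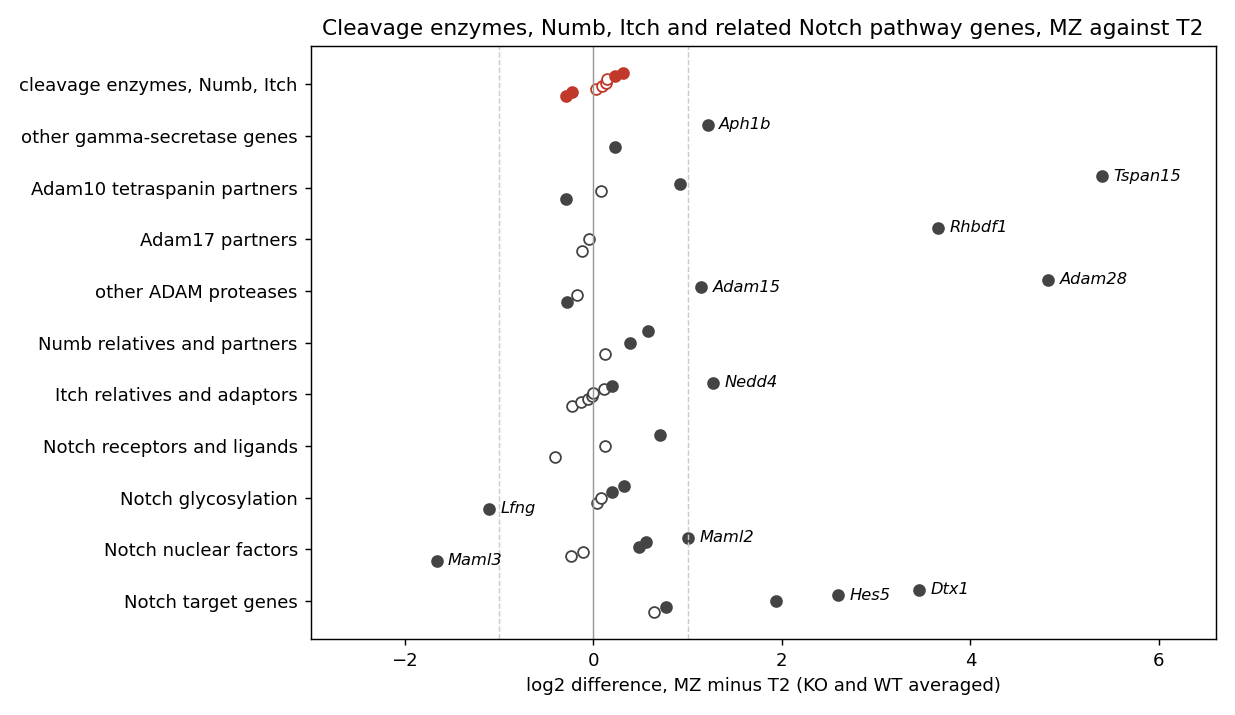
Log2 difference in MZ against T2, KO and WT averaged, for each tested gene by list, with the 8 genes in red; filled points passed an adjusted p of 0.05, and dashed lines mark 1 and -1. The 8 genes lie within -0.29 and 0.32, while Tspan15 (5.39), Adam28 (4.83), Rhbdf1 (3.66) and Dtx1 (3.46) lie far to the right; Tspan15, Adam28, Adam15 and Aph1b entered the test only through MZ.

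By profile over the 16 libraries, and among 7792 tested genes above 5 RPKM (immunoglobulin and T cell receptor segments and the gene itself left out), Adam10 was most like Fbxl5 (Pearson r of log2 levels 0.98) and Phtf1 (0.95). Adam17 was most like Ddx42 and Dock10 (0.95 each), and Psen2 like Tln1 (0.92) and Ccdc97 (0.90). Ncstn was most like Cd27 and Tpcn2 (0.85 each), Aph1a like Fam20b (0.86) and Sdhd (0.82), and Psenen like Raly (0.93) and Smpd2 (0.92). Numb was most like Rbms2 (0.90), and Itch like Bnip3l (0.97) and Gpbp1l1 (0.96). The members did not name each other, and no 2 of them shared a nearest gene. The 16 points share subsets, replicates and depth, and the values are descriptions.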

How the data were processed

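RNA-Seq values of 16 libraries were used, 2 for each genotype and B-cell subset. The deposited values are RPKM per gene and library, which the authors computed with their own scripts from TopHat alignments to mm10, after read filtering and without multi-mapping reads. Neither software versions nor the use of strand in counting is given in the sources used here. The RPKM values resolved into whole reads (tolerance 0.01) for 13395 of 23194 genes above 0 at their GENCODE M21 exon length and for the other 9799 at a length fitted to the values, which gave 9003343 to 26386684 reads per library.

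Members and lists were chosen with earlier results of these data known. Genes with a group mean above 1 RPKM were tested as log2(RPKM + 0.5) with limma 3.58.1 (R 4.3.3, trended variance, 8 groups in 1 fit), with Benjamini-Hochberg adjustment over 12507 genes; a fold change on this scale understates that of low genes. All 8 members are named, and of each list at most 2 risers and 2 fallers beyond 1 on the log2 scale in MZ against T2. The 2 likest genes had the highest Pearson r; 1 of those for Numb, and 1 marker gene, are not reported here. On simulated data the test was checked with independent libraries and larger fold changes than those of the member calls. That check does not cover differences of the members' size. Positions and transcripts came from GENCODE M21, miRNAs from RefSeq. Matches were sought in the longest 3′ untranslated region of each gene. Alternatives were pseudocounts of 0.1 and 1, no filter, median-ratio and quantile scaling, replicate blocks, the compared libraries alone, voom on recovered reads and leaving out each library. List counts without genes that entered through 1 compared subset were chosen after seeing the data.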

Additional observations from a re-analysis of the deposited data

How the results depend on the processing

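No member that passed in any comparison changed its direction under an alternative. The larger changes in the number of members passing were as follows. With only the compared libraries, which leaves fewer samples to estimate the spread, 0 passed in T2 against T1, 2 in MZ against T2, 0 in FO against T2 and 0 in MZ against T2 in WT. Without the filter, 0 passed in FO against T2, and Itch was lost in MZ against T2 (adjusted p = 0.0634). Under quantile normalization 1 passed in MZ against T2 in KO and 2 in WT. Leaving out 1 library gave 2 to 4 members in MZ against T2, 0 to 2 in FO against T2, 0 to 3 in MZ against FO, 0 to 1 in MZ against T2 in KO and 0 to 1 in WT. Of all values for single members, 2373 kept direction and side of the threshold, 53 lost and 13 gained the call, and 121 values that had not passed changed sign.

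With a replicate block, members passing in MZ against T2 numbered 3, against 4 without it, and Itch was lost (adjusted p = 0.0510). With a replicate block within genotype, 1 member passed in MZ against T2 in KO (Ncstn, adjusted p = 0.0189) and 2 in WT (Ncstn, 0.0205, and Psen2), Ncstn also passed in T2 against T1 (0.0305) and Adam17 in MZ against T2 (0.0480). Replicate numbers share only a number in the labels. Same-numbered deviations correlated at 0.0756 to 0.453 within genotype, over 0.1 in 10 of 12 pairs, and at -0.361 to 0.300 between genotypes, over 0.1 in 2 of 16. With 2 replicates per group, small differences such as these lie near the limit of the test.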
